A study of Mus musculus and Acomys cahirinus with 25 samples.

Results

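The genes described here are 7 keratins of the interfollicular epidermis, chosen by symbol from the 24500 gene symbols of the count files and read in all 25 libraries. Krt5, Krt14 and Krt15 are the basal keratins, and Krt1, Krt10, Krt2 and Krt77 are the suprabasal keratins. The choice was made by symbol, with earlier results of these data already known. All 7 symbols were present in every file. Each value below is in CPM, the reads of a gene scaled to a fixed total of reads on genes in each library, unless another scale is named.

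The study sequenced RNA from healing full-thickness wounds of laboratory mice and spiny mice, and from spiny mouse skin before wounding. The laboratory mice were wounded at 4 weeks of age, and all 13 of their libraries came from post-wound day 14 (PWD14). C57BL/6J was the study's primary laboratory mouse. Wild-type (WT) epidermis was split into wound center (2 libraries) and wound margin (2 libraries), and WT dermis into center (5 libraries) and margin (2 libraries). A further 2 libraries came from the wound center dermis of K14-Cre-Twist1 mice, labelled KO, in which a Cre transgene under a KRT14 promoter deletes Twist1 in keratinocytes. Per the study's methods they were bred from a cross, with Twist1+/+ animals as controls, and no strain background is given for it. The study's sample list marks the other laboratory mouse libraries only as WT. The spiny mice (Acomys cahirinus) were WT animals of 8 weeks at wounding. Their 12 libraries came from skin before wounding (PWD0) or from whole wounds (the later days). Epidermis was from PWD0 (1 library), PWD14 (2), PWD21 (2) and PWD28 (1), and dermis from PWD0 (2), PWD14 (1), PWD21 (2) and PWD28 (1). The days are those of the labels. A sample list among the study's supplementary files gives slightly different days for the same spiny mouse libraries after wounding, and the source of the difference was not found. The labels tie no 2 libraries to the same animal. The study's methods speak of independent duplicates, and p-values measure only the spread between these libraries.

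The WT center dermis libraries formed a pair of sets in the study's own comparisons. The first set (2 libraries) was compared with the margin, and the second set (3 libraries) with K14-Cre-Twist1. The division comes from library names printed by the study and not from the labels. Libraries held between 19413261 and 86532134 reads on genes in the laboratory mouse and between 5669760 and 34751956 in the spiny mouse. A count of 3 reads, taken as the smallest detectable amount, was worth between 0.0347 and 0.155 CPM in the laboratory mouse and between 0.0863 and 0.529 CPM in the spiny mouse. Such floors cover counting error only. Replicates differed by far more than counting noise. The chi-square per degree of freedom of each pair within a group was between 28.3 and 375, so that no replicates of a group were the same library. Spiny mouse reads had been aligned to the laboratory mouse genome, so levels were compared only within a species. The share of reads that fell on genes also differed between spiny mouse days. In epidermis it was 26.8% and 24.4% at PWD14 against 34.1% and 38.3% at PWD21. Reads of low quality made up 59.5% and 59.6% against 52.6% and 50.03%. In dermis 26.996% and 32.8% fell on genes at PWD0 against 44.9% and 52.9% at PWD21. The part of this in the differences between days was not tested. Fibroblast markers were also read in epidermis, with sums of 6202 and 7506 CPM in the laboratory mouse wound center against 1105 and 2886 CPM in the margin.

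Keratins form filaments as pairs of a type I and a type II chain. Keratinocytes that sit on the basement membrane make Krt5 with Krt14, and they replace this pair with Krt1 and Krt10 when they detach and move up into the spinous layers. Krt15 is a type I chain of basal cells that is also known as a marker of the hair follicle bulge, Krt2 is a type II chain of late differentiation, and Krt77 is a type II chain of the suprabasal epidermis and the sweat gland duct. During wound closure keratinocytes are known to lower the differentiation keratins and to induce the stress keratins Krt6a, Krt6b, Krt16 and Krt17. In dermis, where fibroblasts make no such filaments, these transcripts report keratinocyte material.

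All 7 genes lay on the minus strand of GRCm38.p6 (the mm10 build of the files), and RefSeq listed no gene overlapping any of them. The type I genes were on chromosome 11, Krt10 at 99385254 to 99397449, Krt15 at 100131759 to 100135949 and Krt14 at 100203162 to 100207510. The type II genes were on chromosome 15, Krt5 at 101707069 to 101712905, Krt2 at 101810689 to 101818956, Krt1 at 101845426 to 101850786 and Krt77 at 101858731 to 101869706. Krt1 and Krt77 were next to each other, with 7944 bases and no gene between them. Reads could in part be shared with other keratins. Of the windows of 75 bases (the read length) in Krt14 transcripts, 5.71% were also found in Krt16, and of those in Krt5 transcripts, 5.18% were also found in other genes, Krt6a and Krt6b among them. No such window was found for the other 5 genes.

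The stretch of 60 bases before the RefSeq start site is shown for 4 of the genes, since Krt2 and Krt77 moved together in spiny mouse epidermis while Krt10 and Krt5 did not move with them. The sequences are from RefSeq on GRCm38.p6, minus strand, written 5′ to 3′, and end at the base before the start site. Capitals mark matches to TATANA, searched on both strands in the last 50 bases, with overlapping matches joined.
Krt5 (chr15:101712906-101712965): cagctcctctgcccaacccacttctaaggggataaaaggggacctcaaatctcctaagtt
Krt10 (chr11:99389365-99389424): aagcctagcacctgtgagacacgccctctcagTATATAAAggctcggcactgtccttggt
Krt2 (chr15:101818170-101818229): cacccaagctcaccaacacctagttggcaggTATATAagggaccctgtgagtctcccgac
Krt77 (chr15:101869706-101869765): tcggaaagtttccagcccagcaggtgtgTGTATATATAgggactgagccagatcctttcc

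The marked run began at -28 in Krt10, at -29 in Krt2 and at -32 in Krt77, counted back from the start site. The letters TATANA occurred in 5.68% of the 32851 promoter windows of the same length. The Krt5 window held no match. The Krt14 entry, whose start site lies 1480 bases inside its gene, held none either and is not printed. Krt15 and Krt1 had no entry. A match here is a description of the letters and not a site of binding. The start sites used for Krt10 and Krt2 lie inside the annotated gene span, by 8085 and 787 bases.

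In spiny mouse epidermis the basal keratins followed separate courses. Krt14, the type I partner of Krt5, was at 5003 CPM at PWD0, at 46374 and 37037 CPM at PWD14, at 19073 and 15598 CPM at PWD21, and at 4933 CPM at PWD28. Both PWD14 libraries lay above both PWD21 libraries, and all 4 lay above the PWD0 and PWD28 libraries. Krt5, the type II partner, was at 8800 CPM at PWD0, at 9621 and 9722 CPM at PWD14, at 12418 and 11831 CPM at PWD21, and at 5610 CPM at PWD28. Its range over the course was much narrower than that of its partner. Krt15 went the other way, from 3021 CPM at PWD0 to 277 and 264 CPM at PWD14, 364 and 345 CPM at PWD21, and 883 CPM at PWD28. The 4 libraries of PWD14 and PWD21 were all below those of PWD0 and PWD28.

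Among the suprabasal keratins, Krt10 was the most abundant at every day, also per kilobase of exon. It was at 22310 CPM at PWD0, at 23028 and 26346 CPM at PWD14, at 36872 and 37907 CPM at PWD21, and at 18395 CPM at PWD28. Krt1, its type II partner, was at 1867 CPM at PWD0, at 1831 and 2221 CPM at PWD14, at 4538 and 3382 CPM at PWD21, and at 2597 CPM at PWD28. Both were highest in the PWD21 libraries. Krt77 was at 4529 CPM at PWD0, at 183 and 288 CPM at PWD14, at 1350 and 1807 CPM at PWD21, and at 1642 CPM at PWD28. Krt2 was at 117 CPM at PWD0, at 33.2 and 29.8 CPM at PWD14, at 163 and 143 CPM at PWD21, and at 188 CPM at PWD28. The 2 late keratins were thus lowest at PWD14 in every library, and Krt2 at PWD21 had passed its PWD0 level where Krt77 had not.

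**Figure D1:**
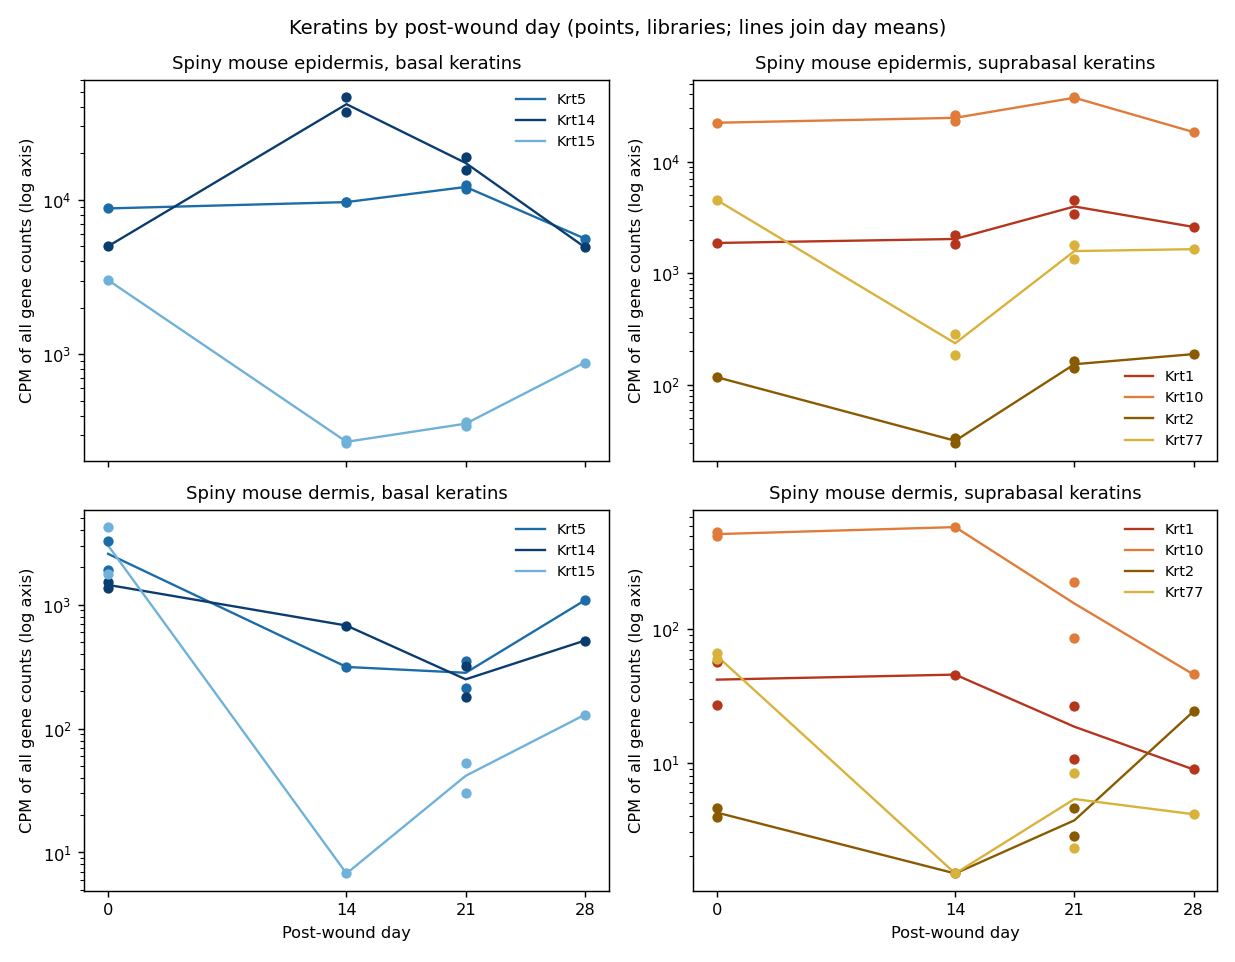
Level of each keratin in spiny mouse epidermis and dermis (CPM of all gene counts, log axis) against post-wound day. Points are libraries and lines join the day means. In epidermis Krt14 peaked at PWD14 (37037 and 46374 CPM) while Krt15, Krt2 and Krt77 were at their lowest there, and in dermis Krt15 fell from 1782 and 4228 CPM at PWD0 to 6.77 CPM at PWD14.

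Per kilobase of exon, which allows genes to be compared, Krt10 led at PWD0 with 10553 CPM per kb, followed by Krt5 (4005), Krt14 (2946), Krt15 (1777), Krt77 (1545), Krt1 (760) and Krt2 (44.8). At PWD14 Krt14 came first with 24562 ± 3888 CPM per kb (SD, n = 2), ahead of Krt10 with 11678 ± 1110, and the ranges of this pair did not overlap. At PWD21 Krt10 led again with 17687 ± 346 against 10209 ± 1447 for Krt14 (SD, n = 2). At PWD28, with 1 library, the order was Krt10, Krt14, Krt5, Krt1, Krt77, Krt15 and Krt2. These orders also depend on how well spiny mouse reads align to each laboratory mouse gene.

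PWD14 and PWD21, the days with replicate epidermis libraries, were compared with the quasi-likelihood test of edgeR over 12889 genes. After Benjamini-Hochberg adjustment of its p-values (here FDR), 46.6% of these genes passed an FDR of 0.05. Of the 7 keratins, 1 was higher and 2 were lower at PWD14. Krt14 was higher by 1.82 ± 0.22 (log2 fold change ± SE, n = 2 per day, edgeR FDR = 1.4e-04). Krt77 was lower by -2.20 ± 0.22 (edgeR FDR = 5.3e-05) and Krt2 by -1.73 ± 0.18 (edgeR FDR = 7e-05). Krt5 (0.23 ± 0.17), Krt15 (0.16 ± 0.15), Krt1 (-0.42 ± 0.19) and Krt10 (-0.05 ± 0.19) did not pass. The median over the 7 genes was -0.05 and that over all tested genes -0.04 (log2).

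The scaling of these libraries mattered for the genes that did not pass. The TMM factors of edgeR were 0.803 and 0.848 at PWD14 against 1.19 and 1.23 at PWD21. With library size alone the median of all genes became -0.59 and the share of calls that were higher at PWD14 fell from 50.2% to 18.9%. Krt5 then turned to -0.33 without a call, and Krt15 (-0.39), Krt1 (-0.97) and Krt10 (-0.60) were called lower. Each of the 4 had moved by about as much as the median of all genes, and Krt14 (1.27), Krt2 (-2.28) and Krt77 (-2.74) kept their direction and their call. Scaling to 22 epithelial genes that are not keratins left these 3 at 1.73, -1.82 and -2.27. Hair follicle keratins summed to 37.4 and 64.1 CPM at PWD14 and to 1230 and 632 CPM at PWD21, and fibroblast markers to 711 and 755 CPM against 1931 and 2032 CPM. Their part in these differences was not tested.

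PWD14 and PWD21, here called the wound days, were also set against PWD0 and PWD28 together. This was 1 fit with a mean per day, in which the spread came only from the PWD14 and PWD21 pairs. PWD28 was also a wound, and PWD0 was skin before wounding, so this contrast does not separate wound from unwounded skin. PWD0 and PWD28 had 1 library each and are assumed to vary like the others. Of 14336 genes, 48.1% passed, and all 7 keratins were among them, 4 higher and 3 lower. Krt14 (2.95 ± 0.21), Krt5 (1.13 ± 0.16), Krt10 (1.09 ± 0.17) and Krt1 (0.87 ± 0.17) were higher on the wound days. Krt15 (-1.89 ± 0.13), Krt77 (-1.66 ± 0.18) and Krt2 (-0.59 ± 0.15) were lower, and edgeR FDRs ran from 4.3e-06 for Krt15 to 0.00808 for Krt2. Across the 4 libraries of the wound days, hair follicle keratins summed to between 37.4 and 1230 CPM. They summed to 164 CPM at PWD0 and 25236 CPM at PWD28, and 11 of 11 were lower on the wound days (median -2.63). Their part in the keratin differences was not tested. The libraries of wound days and other days overlapped for Krt1, Krt2 and Krt77 in CPM. The median over the 7 genes was 0.87, against -0.10 over all genes. With library size alone the median of all genes moved to -0.61 and the share of higher calls from 47.6% to 20.3%, Krt1 (0.36) lost its call, and the other 6 kept theirs. Scaled to the non-keratin epithelial genes, the median of all genes was -0.50 with 24.8% of calls higher, and Krt1 (0.47) again did not pass. Without the PWD28 library Krt2 (-0.30) did not pass either, and Krt5 was at 0.75. Leaving out PWD0 took Krt15 to -0.96, Krt77 to -0.88 and Krt2 to -0.89, and leaving out PWD28 took Krt15 to -2.84 and Krt77 to -2.45.

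Ratios between keratins within a library do not depend on scaling. The ratio of Krt14 to Krt5 counts was 0.569 on PWD0, 4.82 and 3.81 on PWD14, 1.54 and 1.32 on PWD21, and 0.879 on PWD28. The counts of the basal filament partners thus changed their proportion over the days, with each PWD14 and PWD21 library above PWD0 and PWD28. The read windows shared with Krt16, Krt6a and Krt6b were searched in laboratory mouse transcripts. They do not measure misplaced spiny mouse reads, whose part in this ratio was not tested. The ratio of Krt15 to Krt14 was 0.604 on PWD0, 0.00597 and 0.00712 on PWD14, 0.0191 and 0.0221 on PWD21, and 0.179 on PWD28. The ratio of Krt77 to Krt10 was 0.203 on PWD0, 0.00795 and 0.0109 on PWD14, 0.0366 and 0.0477 on PWD21, and 0.0893 on PWD28. Both were lowest at PWD14 and had not returned to the PWD0 value by PWD28. The suprabasal partners Krt10 and Krt1 kept a ratio between 7.08 and 12.6 at all days. Suprabasal counts per basal count were 1.71 on PWD0, 0.446 and 0.614 on PWD14, 1.35 and 1.56 on PWD21, and 1.998 on PWD28.

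**Figure D2:**
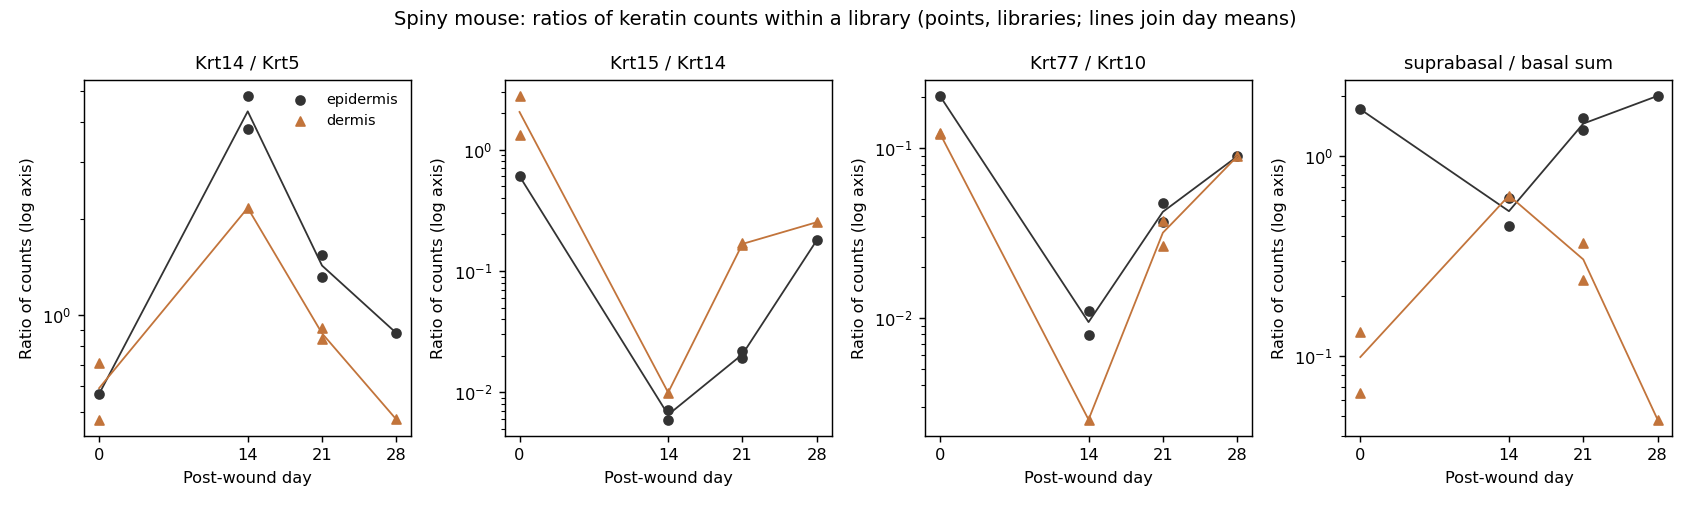
Ratios of keratin counts within each spiny mouse library (log axis) against post-wound day, for epidermis (circles) and dermis (triangles). Points are libraries and lines join the day means. The epidermal ratio of Krt14 to Krt5 rose from 0.569 at PWD0 to 3.81 and 4.82 at PWD14, while those of Krt15 to Krt14 and of Krt77 to Krt10 were at their lowest at PWD14.

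Other genes of the same layers divided in a similar way between PWD14 and PWD21. Of 10 basal companions (hemidesmosome, integrin and basal transcription factor genes), 3 were higher and 3 lower at PWD14. Itga6, an integrin chain of the hemidesmosome, was higher by 0.91 ± 0.21 and its partner Itgb4 by 0.67 ± 0.25 (edgeR FDR = 0.0474). In CPM the libraries of PWD14 and PWD21 overlapped for both of these integrin genes. Col17a1 (-0.73 ± 0.17) and Dst (-1.34 ± 0.18), both hemidesmosome components, were lower. Of 10 spinous companions, 3 were higher and 5 lower. The calcium-binding gene Calm4 (1.86 ± 0.17) and Sbsn (1.73 ± 0.19) were higher, and the desmosomal cadherins Dsc1 (-2.51 ± 0.23) and Dsg1a (-1.24 ± 0.19) were lower. Of 8 granular companions, 4 were higher and 3 lower. The cornified envelope genes Lor (2.10 ± 0.29) and Cnfn (1.90 ± 0.21) were higher, and Flg2 (-1.39 ± 0.25) and the protease gene Casp14 (-1.45 ± 0.23) were lower. The list medians were 0.25, -0.13 and 0.23 (log2), against -0.04 over all genes. With the 46.6% of all genes called, these shares are no result about the lists.

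In the comparison of the wound days with PWD0 and PWD28, 6 of the 10 basal companions were lower and none passed as higher, with Col17a1 at -1.36 ± 0.15 and Dst at -1.44 ± 0.15. Of the spinous companions 5 were higher and 2 lower. Calm4 (3.44 ± 0.18) and Calml3 (2.24 ± 0.20) led upward, and Notch3 (-1.09 ± 0.23) and Dsc1 (-0.69 ± 0.19) downward. Of the granular companions 5 were higher and 1 lower. Cnfn (2.99 ± 0.21) and the transglutaminase gene Tgm3 (2.82 ± 0.21) were higher, and Lor (-0.69 ± 0.24) was lower. The wound-days background is the 48.1% given above. The list medians were -0.56, 0.95 and 0.73.

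Over the 6 spiny mouse epidermis libraries and 12511 genes whose mean reached 1 CPM, the genes most like Krt14 by Pearson's r of log2(CPM + 1) were Gal, Hebp1, Sprr2g, Krt16 and Uqcrc1 (r between 0.997 and 0.999). Krt16, the stress keratin that shares some read windows with Krt14, ran from 589 CPM at PWD28 to 9430 CPM at PWD14. The genes most like Krt10 were Gmppb, Wfdc5, Xpnpep1, Vasn and Aldh3b2 (r between 0.982 and 0.994). Within the set, Krt14 had an r of 0.57 with Krt5 and -0.87 with Krt15, and Krt2 had an r of 0.85 with Krt77. These are descriptions over 6 points from 4 days that share the libraries' scaling.

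In laboratory mouse epidermis at PWD14 the suprabasal pair dominated. Krt1 was at 75456 and 70526 CPM in the wound center and at 70741 and 102291 CPM in the margin. Krt10 was at 65229 and 59288 CPM in the center and at 60133 and 81464 CPM in the margin. In both genes the center libraries lay within or near the spread of the margin pair. Together the 7 keratins took between 13.9% and 20% of all reads on genes in these 4 libraries. Per kilobase, Krt1 (29732 ± 1420) and Krt10 (29451 ± 1987, CPM per kb, SD, n = 2) did not differ beyond their spread in the center, nor did Krt1 (35241 ± 9087) and Krt10 (33490 ± 7135) in the margin.

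The basal keratins were lower, also per kilobase of exon. Krt5 was at 6787 and 6661 CPM in the center and at 5122 and 8858 CPM in the margin. Krt14 was at 9972 and 11970 CPM in the center and at 3200 and 7072 CPM in the margin, so that its groups did not overlap. Krt15 was at 430 and 326 CPM in the center and at 267 and 294 CPM in the margin. The ratio of Krt14 to Krt5 was 1.47 and 1.80 in the center and 0.625 and 0.798 in the margin, and suprabasal counts per basal count were 8.19 and 6.85 against 15.2 and 11.3. Neither ratio overlapped between regions, and with 2 libraries on each side an exact permutation test cannot reach a two-sided p under 0.05.

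Krt77 and Krt2 were scarce. Krt77 was at 1.27 and 1.75 CPM in the center (86 and 97 reads) and at 34.9 and 17.4 CPM in the margin (1231 and 1507 reads). The groups stood well apart. Krt2 had 0 and 22 reads in the center and 54 and 68 reads in the margin.

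Center and margin were compared in 14165 genes, of which 1.24% passed. Of the 7 keratins, 1 passed. Krt77 was lower in the center by -4.23 ± 0.54 (log2 fold change ± SE, n = 2 per region, edgeR FDR = 0.0394). Krt14 (1.02 ± 0.47, edgeR FDR = 0.254), Krt2 (-2.61 ± 1.20), Krt15 (0.32 ± 0.22), Krt5 (-0.14 ± 0.39), Krt1 (-0.34 ± 0.68) and Krt10 (-0.28 ± 0.64) did not pass. The median over the 7 genes was -0.28 and that over all genes -0.02. Krt77 did not pass with the older quasi-likelihood estimate of edgeR 3, which called 0 genes (edgeR FDR = 0.0746 for Krt77). That estimate had an unadjusted p under 0.05 in 2893 genes, the current one in 3328, and DESeq2 called 1511. With either margin library alone, Krt14 was at 0.60 or 1.63, and the spread then came only from the center pair. Krt5 was -0.43 without the first margin library and 0.24 without the second. Hair follicle keratins summed to 0.324 and 0.814 CPM in the center and to 6.21 and 44.5 CPM in the margin, and 2 of 14 fibroblast markers were higher in the center. Their part in the Krt77 difference was not tested.

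The companions moved little here. None of the 10 basal and none of the 10 spinous genes passed, with medians of 0.16 and -0.04. Of the 8 granular genes, Flg2, a filaggrin-like gene of the cornified layer, was lower in the center by -2.67 ± 0.25 (edgeR FDR = 0.0367), with means of 270 and 1595 CPM.

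**Figure D3:**
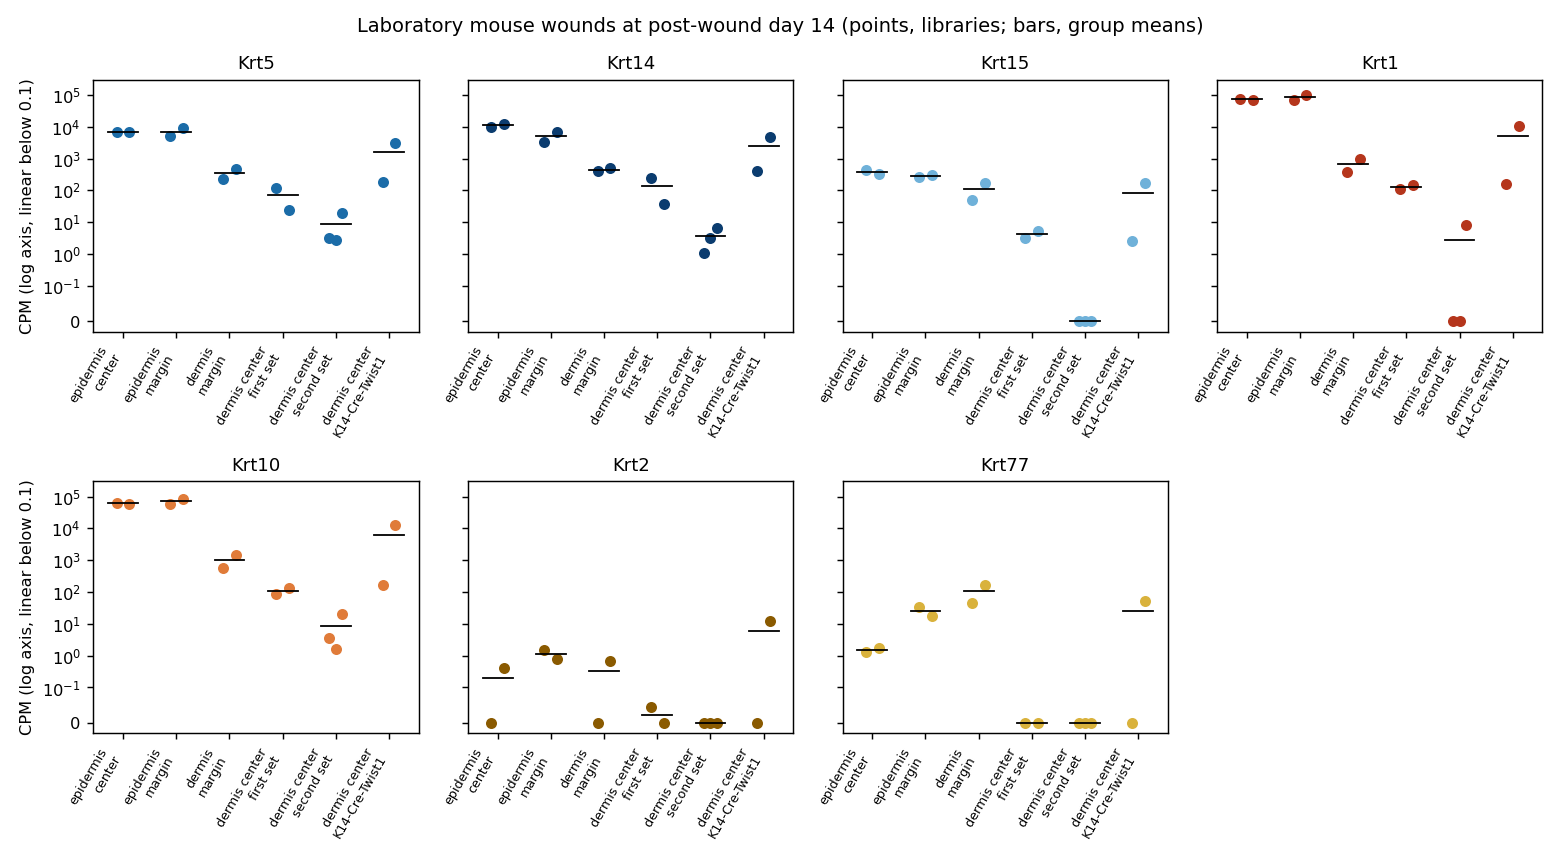
Level of each keratin in every laboratory mouse library at PWD14 (CPM, log axis that is linear below 0.1) for epidermis and dermis by region, set and genotype. Points are libraries and bars are group means. Krt1 and Krt10 were between 59288 and 102291 CPM in all 4 epidermis libraries, and the 3 WT center dermis libraries of the second set were the lowest for Krt5, Krt14, Krt15, Krt1 and Krt10.

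In laboratory mouse dermis the keratins were a small share of the reads and varied widely between libraries. In bulk tissue fewer keratinocytes and less keratin RNA per keratinocyte cannot be told apart. The 7 genes summed to 1686 and 3758 CPM in the margin, to 565 and 352 CPM in the first WT center set, and to 7.90, 7.46 and 54.8 CPM in the second WT center set. The margin was highest, and the sets of the same labelled tissue did not overlap. The fibroblast markers, which check the label, summed to between 106837 and 198328 CPM in all 9 dermis libraries, and none of the 14 was at 0 in any library.

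Krt10 was at 582 and 1455 CPM in the margin and at 88.2 and 135 CPM in the first center set. Krt1 was at 386 and 1002 CPM in the margin and at 111 and 150 CPM in the center. Krt77 was at 45.9 and 166 CPM in the margin and had 0 reads in both center libraries. These suprabasal genes did not overlap between regions. Krt15 was at 48.6 and 167 CPM in the margin and at 3.17 and 5.41 CPM in the center, again with no overlap. Krt14 was at 391 and 509 CPM in the margin and at 244 and 38.4 CPM in the center, and Krt5 was at 232 and 458 CPM in the margin and at 119 and 23.8 CPM in the center. Here too every center library was below every margin library, but the center pair differed greatly.

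In 14698 genes, 0.85% passed between center and margin. Of 6 keratins tested, 4 were lower in the center. They were Krt10 (-3.10 ± 0.37, edgeR FDR = 0.00387), Krt1 (-2.31 ± 0.36, edgeR FDR = 0.0131), Krt15 (-4.56 ± 0.65, edgeR FDR = 0.00911) and Krt77 (edgeR FDR = 0.00749). The margin mean of Krt77 was at least 687-fold above the center floor of 3 counts per library, with the first margin library at 297-fold. Krt5 (-2.13 ± 0.53, edgeR FDR = 0.117) and Krt14 (-1.54 ± 0.56, edgeR FDR = 0.238) did not pass, and Krt2 had too few reads to be tested. Over the 6 genes the median was -2.70 and over all genes -0.03. Library size alone moved the median of all genes to -0.12.

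Some of the other epidermal genes were lower too. Of 21 non-keratin epithelial genes tested, 8 were lower and none passed as higher, with a median of -3.21. Of the companions, 0 of 10 basal, 5 of 10 spinous and 4 of 8 granular genes were lower, with Dsg1a at -5.25 ± 0.50, Cdsn at -5.78 ± 0.78 and Grhl1 and Flg2 at 0 reads in both center libraries. Hair follicle keratins were lower in 8 of 11, and their sum was 572 and 652 CPM in the margin against 3.13 and 0 CPM in the center. With counts scaled to the 22 non-keratin epithelial genes, Krt14 was higher in the center by 1.55 (edgeR FDR = 0.00483), Krt5 (0.98), Krt1 (0.71) and Krt10 (-0.08) did not pass, and Krt77 kept its call (edgeR FDR = 1.1e-04). Under that scaling the median of all genes was 2.91 and 99.2% of the calls were higher. Without the second margin library, Krt15, Krt1 and Krt77 did not pass. Without the first center library, Krt5 (-3.79, edgeR FDR = 0.00298) and Krt14 (-3.49, edgeR FDR = 6.8e-04) passed. Krt1 was also lost without that library (edgeR FDR = 0.0566) and with all 5 WT center libraries (edgeR FDR = 0.115). With all 9 dermis libraries in 1 fit, all 4 calls were lost (edgeR FDRs from 0.690 to 0.790).

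In K14-Cre-Twist1 wound center dermis Krt14 was called higher than in the second WT set, and the 2 KO libraries differed from each other many times over in keratin level. Krt14 was at 398 and 4707 CPM in KO and at 1.08, 3.07 and 6.72 CPM in WT. Krt5 was at 183 and 3113 CPM in KO and at 3.18, 2.72 and 19.5 CPM in WT. Krt10 was at 164 and 12500 CPM in KO and at 3.63, 1.66 and 20.5 CPM in WT. The groups did not overlap in any of the 3. Krt1 was at 162 and 10396 CPM in KO and had 0, 0 and 214 reads (8.12 CPM) in WT. Krt15 was at 2.59 and 167 CPM in KO and had 0 reads in each WT library. Krt77 and Krt2 had 0 reads in the first KO library and were at 52.0 and 11.98 CPM in the second, which was thus the one KO library with these late keratins. Twist1 was at 73.4 and 44.0 CPM in KO and at 57.7, 36.3 and 105 CPM in WT, which does not check the deletion, since the Cre acts in keratinocytes.

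Of 14163 genes, 0.0565% passed. Krt14 was the 1 keratin called among 5 tested (9.42 ± 1.12, edgeR FDR = 0.0474). Krt5 (7.52 ± 1.23, edgeR FDR = 0.149), Krt1 (10.8 ± 1.83, edgeR FDR = 0.149) and Krt10 (9.43 ± 1.71, edgeR FDR = 0.168) did not pass. Krt15 did not pass either (edgeR FDR = 0.271), and its KO mean was at least 559-fold above the floor of WT, mostly by the second KO library, with the first at 17.1-fold. Krt77 and Krt2 were not tested, and their KO means were at least 172-fold and at least 39.6-fold above that floor, by the second KO library alone. Over the 5 tested genes the median was 9.43, against -0.07 over all genes.

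The Krt14 call was lost without any 1 of the WT libraries (edgeR FDR = 0.739, 0.466 and 0.226) and with all 5 WT center libraries (5.44, edgeR FDR = 0.0766), where Krt5 (5.61), Krt15 (5.76) and Krt10 (7.02) passed instead. Without the keratin-rich second KO library, Krt14 was 6.82 (edgeR FDR = 6.3e-05), Krt5 4.42 (edgeR FDR = 0.0166), Krt1 5.86 (edgeR FDR = 0.00808) and Krt10 4.23 (edgeR FDR = 0.0287) against WT, the lone KO library being assumed to vary like the WT group. The first set of WT center libraries, at 38.4 and 244 CPM for Krt14 and 88.2 and 135 CPM for Krt10, came closer to the first KO library than the second WT set did. No library of the first set was labelled KO, so set and genotype cannot be told apart between these.

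Epithelial genes that are not keratins summed to 201 and 6696 CPM in KO and to 85.9, 75.8 and 83.6 CPM in WT. Keratin counts per count of these genes were 4.52 and 4.62 in KO, 4.52 and 1.92 in the first WT set, 1.72 and 2.404 in the margin, and 0.0919, 0.0984 and 0.656 in the second WT set, against 7.27 to 10.1 in epidermis. The second WT set had between 7 and 10 of the 22 epithelial genes at 0 reads. Of the companions, 0 of 10 basal, 0 of 10 spinous and 0 of 5 granular genes tested passed, where 1631 of all genes had an unadjusted p under 0.05 in edgeR and DESeq2 called 787 genes. None of the 14 fibroblast, 8 immune or 5 endothelial markers passed. In the make-up of the keratin counts the first KO library (20.1% Krt5, 43.8% Krt14, 17.8% Krt1 and 18.1% Krt10) was near the first WT center library (21.1%, 43.1%, 19.6% and 15.6%). The second KO library had 10.1%, 15.2%, 33.6% and 40.4%, a larger suprabasal share.

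**Figure D4:**
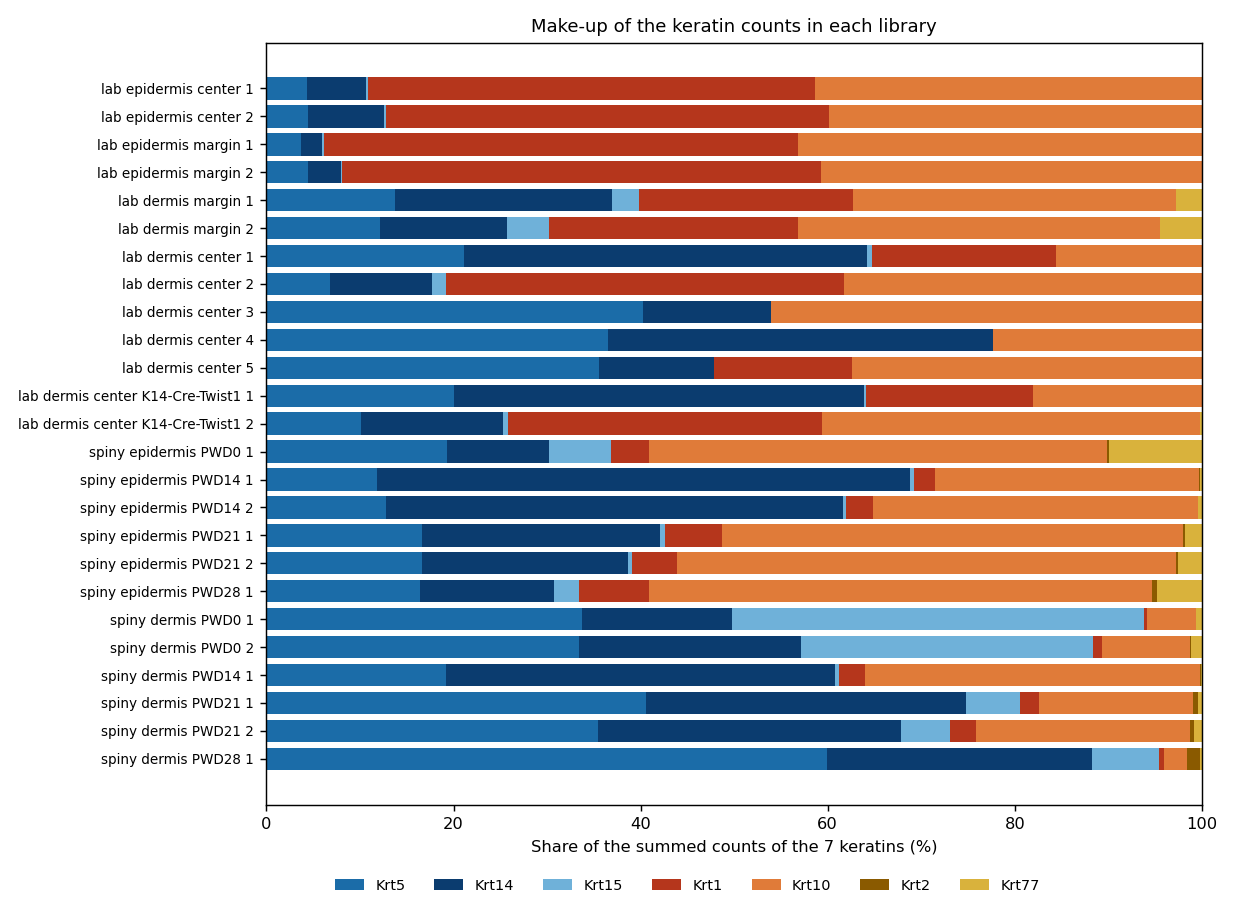
Share of each keratin in the summed counts of the 7 genes (%, horizontal axis) in every library (vertical axis, grouped by species, tissue, region or day). Krt1 and Krt10 made up most of the counts in laboratory mouse epidermis, Krt14 reached 57.0% and 48.8% in spiny mouse epidermis at PWD14, and Krt15 was 44.1% and 31.2% in spiny mouse dermis at PWD0.

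Over the 9 laboratory mouse dermis libraries and 13995 genes, the genes most like Krt14 were Ilkap, Ly6d, Krt6a, Sfn and Col17a1 (r between 0.961 and 0.976), and those most like Krt10 were S100a14, Lgals7, Serpinb5, Pkp1 and Akr1b3 (r between 0.979 and 0.990). These too are descriptions, over libraries of 2 regions and 2 genotypes. Krt14 had an r of 0.98 with Krt5, and Krt10 an r of 0.99 with Krt1. The second KO library is the highest point for all 7 keratins but Krt15 and Krt77.

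Spiny mouse dermis at PWD0 was marked by basal keratins. Krt15 was at 4228 and 1782 CPM at PWD0, at 6.77 CPM at PWD14, at 30.4 and 52.7 CPM at PWD21, and at 129 CPM at PWD28. At PWD0 its mean in dermis was 99.5% of its level in the epidermis library of that day, and at PWD14 2.50%. Krt5 was at 3237 and 1907 CPM at PWD0, at 314 CPM at PWD14, at 213 and 350 CPM at PWD21, and at 1085 CPM at PWD28. Krt14 was at 1531 and 1358 CPM at PWD0, at 678 CPM at PWD14, at 180 and 320 CPM at PWD21, and at 513 CPM at PWD28. All 3 were highest at PWD0, and the PWD0 and PWD21 pairs did not overlap in any of them.

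The suprabasal keratins in dermis differed among themselves. Krt10 was at 498 and 539 CPM at PWD0, at 585 CPM at PWD14, at 86.3 and 226 CPM at PWD21, and at 45.8 CPM at PWD28. Krt1 was at 27.0 and 56.9 CPM at PWD0, at 45.7 CPM at PWD14, at 10.7 and 26.5 CPM at PWD21, and at 8.88 CPM at PWD28. The PWD14 library of this pair was as high as PWD0, and PWD28 was the lowest. Krt77 was at 60.1 and 66.4 CPM at PWD0 and between 1.47 and 8.37 CPM in the other 4 libraries. Krt2 was between 1.47 and 4.56 CPM in 5 libraries and at 24.3 CPM at PWD28. Suprabasal counts per basal count were 0.0655 and 0.132 on PWD0, 0.635 on PWD14, 0.241 and 0.367 on PWD21, and 0.0481 on PWD28, lower than in the epidermis of the same day except at PWD14, where epidermis had 0.446 and 0.614.

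Between PWD21 and PWD0, 26.2% of 14481 genes passed, and 5 of the 7 keratins were lower at PWD21. Krt15 (-6.33 ± 0.70, edgeR FDR = 7.6e-04), Krt77 (-3.65 ± 0.58, edgeR FDR = 0.00343), Krt5 (-3.33 ± 0.53, edgeR FDR = 0.00344), Krt14 (-2.64 ± 0.43, edgeR FDR = 0.00379) and Krt10 (-1.82 ± 0.45, edgeR FDR = 0.0213) passed. Krt1 (-1.23 ± 0.48, edgeR FDR = 0.0901) and Krt2 (-0.28 ± 0.50) did not. The median over the 7 genes was -2.64, against 0.03 over all genes. Of 22 non-keratin epithelial genes 19 were lower, with a median of -2.39, and of the companions 4 of 10 basal, 4 of 10 spinous and 5 of 7 granular genes were lower and none passed as higher. Col17a1 (-4.30 ± 0.54), Lamb3 (-3.65 ± 0.45), Sbsn (-3.43 ± 0.36), Calml3 (-3.18 ± 0.31), Lor (-4.95 ± 0.57) and Tgm3 (-4.85 ± 0.96) led the lists. Fibroblast markers were higher in 8 of 14, and muscle markers were lower in 5 of 5, with sums of 816 and 2047 CPM at PWD0 and 325 and 435 CPM at PWD21. Their part in the keratin differences was not tested. Scaled to the 22 epithelial genes, Krt15 remained lower by -3.33 (edgeR FDR = 1.7e-07), Krt5 (-0.33), Krt14 (0.32), Krt77 (-0.78) and Krt10 (1.07) did not pass, and Krt1 (1.64) and Krt2 (2.67) were higher. The median of all genes was then 3.06, with 98.7% of calls higher. Without the first PWD21 library Krt5, Krt14 and Krt10 did not pass (edgeR FDRs of 0.0707, 0.0710 and 0.138).

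With PWD14 and PWD21 set against PWD0 and PWD28, where PWD14 and PWD28 had 1 library each, 15.9% of 15344 genes passed and 4 of the 7 keratins were lower. They were Krt15 (-5.03 ± 0.58), Krt5 (-2.30 ± 0.42), Krt77 (-2.30 ± 0.51) and Krt2 (-1.90 ± 0.40), with edgeR FDRs from 0.00127 to 0.0199. Krt14 (-0.86 ± 0.34), Krt1 (0.83 ± 0.42) and Krt10 (1.19 ± 0.39) did not pass. The median over the 7 genes was -1.90, against 0.04 over all genes. Library size alone moved the median of all genes to -0.17 and the share of higher calls from 38.7% to 25.8%, and Krt14 was then called (-1.06). Of the epithelial genes that are not keratins 21 of 22 were lower, with a median of -3.40, and of the companions 6 of 10 basal, 7 of 10 spinous and 4 of 7 granular genes were lower. Among them were Col17a1 (-3.39 ± 0.47), Lamb3 (-2.80 ± 0.40), Calml3 (-4.29 ± 0.31), Grhl1 (-3.63 ± 0.30), Tgm3 (-5.88 ± 0.97) and Cdsn (-3.40 ± 0.46). Krt2 and Krt77 were lost without the PWD14 library, Krt2 also without PWD28 (-0.77) or the first PWD21 library, and Krt5 without that last one. Krt77 was at -4.40 without PWD28, and Krt14 passed without PWD14 (-1.73) or PWD28 (-1.74).

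Scaled to the 22 epithelial genes, 6 of the 7 keratins had a higher value on the wound days, with Krt10 at 4.54, Krt1 at 4.17, Krt14 at 2.53, Krt2 at 1.48 and Krt5 at 1.11 called and Krt77 at 1.04 not, and Krt15 was lower by -1.62. The median of all genes was then 3.47, with 99.3% of calls higher. The PWD28 dermis library stood apart from the others. It held 34852 CPM of hair follicle keratins, against between 87.5 and 9395 CPM in the other 5, and 4886 CPM of the 22 epithelial genes, as much as or more than the PWD0 libraries with 3633 and 3824 CPM. Without it Krt1 and Krt10 were at -0.40 and -0.69 with TMM scaling. The part of follicle material in the dermal levels was not tested.

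**Figure D5:**
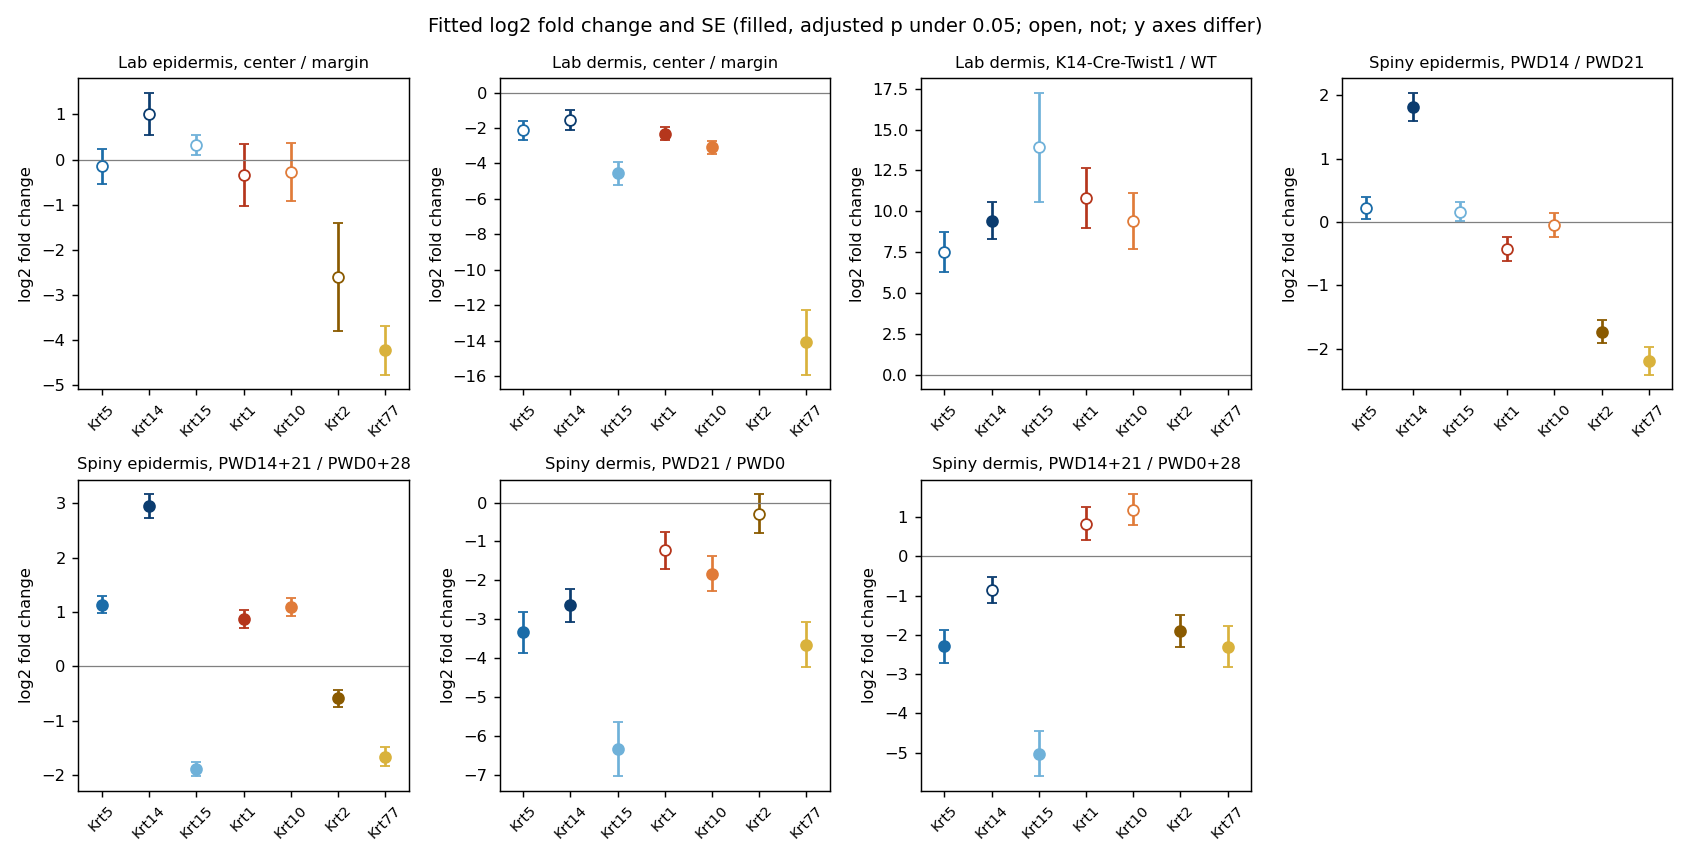
Fitted log2 fold change of each keratin (points) with its SE (bars) in the 7 comparisons, with filled points where the edgeR FDR was under 0.05 and vertical axes that differ between panels. Krt14 was the highest of the 7 in both spiny mouse epidermis panels (1.82 and 2.95), and Krt15 was the lowest in both spiny mouse dermis panels (-6.33 and -5.03). Krt15 and Krt77 points beyond 13 in size stand for groups at 0 reads and are no measure of the fold.

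As a measure of keratinocyte RNA in dermis, the keratins gave unequal readings. In laboratory mouse margin dermis Krt1 was 0.802%, Krt10 1.44%, Krt5 4.93%, Krt14 8.77% and Krt15 38.4% of its mean in margin epidermis. The 22 non-keratin epithelial genes ran from 3.12% to 28.0% there, with a median of 10.7%. In the first WT center set Krt5 was 1.06%, Krt14 1.28%, Krt15 1.14%, Krt1 0.178% and Krt10 0.179% of center epidermis, and the 22 genes had a median of 0.573%. In KO dermis, against WT center epidermis, the basal genes were between 22.4% and 24.5%, Krt1 7.23% and Krt10 10.2%, and the 22 genes had a median of 17.9%. These KO means rest mostly on the second KO library, where the keratins summed to 30946 CPM against 910 CPM in the first. In the margin, the first WT center set and KO the 3 basal keratins stood at a larger share of their epidermal level than Krt1 and Krt10. In the second WT center set this held for Krt5 (0.126%) and Krt14 (0.0330%) against Krt1 (0.00371%) and Krt10 (0.0138%). Krt15 was at 0% there and did not keep to it. The other suprabasal genes did not keep to this order. Krt77 was 406% of epidermis in the margin and 1721% in KO, and Krt2 was 29.2% in the margin and 3011% in KO, against epidermal levels of at most 34.9 CPM for Krt77 and 1.53 CPM for Krt2. Both genes had 0 reads in the first KO library.

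In spiny mouse dermis the same order held at PWD0 (Krt5 29.2%, Krt14 28.9%, Krt1 2.25% and Krt10 2.32% of epidermis), at PWD21 (2.33%, 1.44%, 0.469% and 0.418%) and at PWD28 (19.3%, 10.4%, 0.342% and 0.249%). At PWD14, with 1 dermis library, Krt14 (1.63%) was below Krt1 (2.26%) and Krt10 (2.37%), and Krt5 was at 3.25%. The suprabasal Krt2 did not keep to this order after PWD0. It was at 4.67% at PWD14, 2.41% at PWD21 and 12.9% at PWD28, above Krt14 on each of these days. At PWD14 and PWD21 it was also above Krt5. These shares are means over libraries of separate samples, given without a test.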

How the data were processed

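RNA-seq libraries of wound epidermis and dermis were grouped by their labels. For each of 25 libraries the authors deposited a file of raw read counts by gene symbol, not normalized. Per the study's methods they aligned reads to mm10 with STAR and counted them with htseq-count (HTSeq 0.6.0) on RefSeq genes. The submitters' processing notes give STAR 2.4.1d, and the quality minimum and strand option of the counting are not given in the sources used here. Laboratory mouse epidermis libraries were strand-specific and paired-end, laboratory mouse dermis libraries strand-specific and single-end, and spiny mouse libraries single-end without strand. Each file's 5 summary lines of htseq-count were left out. Counts were scaled to CPM over 24500 symbols.

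Members and gene lists were chosen with earlier results of these data known. Tests used edgeR 4.0.16 in R 4.3.3 (limma 3.58.1): TMM, filterByExpr and the quasi-likelihood test, with p-values adjusted by Benjamini-Hochberg over every gene tested. An SE is the fitted log2 fold change divided by the root of its F statistic, as a size. On simulated counts with 200 genes changed by 3 (log2), the share recovered ran from 81.0% for KO against WT (14163 genes) to 100% for spiny mouse epidermis PWD14 against PWD21 (12889 genes). Alternatives were RLE, library size alone, scaling to 22 non-keratin epithelial genes, other low-count filters, DESeq2 1.42.0, the edgeR 3 estimate, other sets of libraries, each library left out in turn, and TMM levels. Named companions are, in each comparison, the 2 genes per list and direction with the largest change among those with an FDR under 0.05, and the 5 genes most like Krt14 and Krt10 are given. Flg was not analysed here. Exon lengths came from GENCODE, and positions and promoters from RefSeq tables in which 23535 symbols matched. Python 3.11.15, pandas 2.3.3, numpy 2.4.6 and matplotlib 3.10.9 were used for summaries and plots.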

Additional observations from a re-analysis of the deposited data

Results flagged for a closer look

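Among the 5 WT center dermis libraries 3 keratins had a highest library that stood far from the rest by Dixon's test, which was run on 6 keratins with values above 0. Krt14 was at 244 CPM and Krt5 at 119 CPM in the first library of the first set. Krt2 was at 0.0453 CPM there, which is 1 read against 0 in the others, so that its flag was fixed by this read. Chance flags about 1 in 20 groups drawn from a single normal population. The 5 libraries instead pooled the first and second sets, whose keratin sums did not overlap, so the flags cannot tell an outlier from a difference between sets. The second library of that set was at 23.8 CPM for Krt5, and the 3 libraries of the second set were between 2.72 and 19.5 CPM.

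Between center and margin of the laboratory mouse, Krt14 and Krt15 moved in opposite directions in the 2 tissues in every library. The ratio of mean CPM was 2.14 for Krt14 and 1.35 for Krt15 in epidermis, and 0.313 and 0.0398 in dermis. On the wound days of the spiny mouse, against PWD0 and PWD28, the ratio of mean CPM of Krt5 was 1.51 in epidermis and 0.141 in dermis. The difference between tissues was not tested in any of these.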

How the results depend on the processing

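Of 46 member values in the 7 comparisons, 25 passed. The share of all genes that passed ran from 0.0565% (KO against WT) to 48.1% (spiny mouse epidermis over 4 days), so the pooled count is no result about the keratins. The counts of genes called varied most in the laboratory mouse. In epidermis 176 genes were called, 1511 by DESeq2, 0 by the edgeR 3 estimate (2893 with an unadjusted p under 0.05), and without 1 library between 70 (second center library) and 7405 (second margin library), with 5508 without the first margin library and 100 without the first center library. In dermis, center against margin, 125 were called, 738 by DESeq2, 54 by the edgeR 3 estimate, 323 with all 5 WT center libraries, 5 with all dermis libraries in 1 fit, and between 19 (second margin library) and 241 (second center library) without 1 library. For KO against WT 8 were called, 787 by DESeq2, 2 by the edgeR 3 estimate, 0 by edgeR with at least 10 counts in every library (1273 with an unadjusted p under 0.05), 190 with all 5 WT center libraries, 75 with all dermis libraries in 1 fit, and between 1 (a WT library of the second set) and 3353 (first KO library) without 1 library. In the spiny mouse the counts without 1 library ran from 3470 (second PWD21 library) to 6635 in epidermis PWD14 against PWD21 (6002 called), from 1311 (second PWD21 library, with 1360 without the first) to 5118 in dermis PWD21 against PWD0 (3792 called), and from 1240 (first PWD21 library) to 3759 (first PWD0 library) in dermis over 4 days (2443 called). Scaling to the non-keratin epithelial genes called 12676, 12970 and 13587 genes in the dermis comparisons of region, PWD21 and the 4 days. This scaling could not be fitted for KO against WT, where it gave p-values of exactly 0 and 1.

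The direction of members turned in few settings, and the cause was not tested. With the epithelial scaling these were Krt5 (0.98), Krt14 (1.55) and Krt1 (0.71) in laboratory mouse dermis by region, Krt14 (0.32), Krt1 (1.64), Krt10 (1.07) and Krt2 (2.67) in spiny mouse dermis PWD21 against PWD0, and Krt5 (1.11), Krt14 (2.53), Krt2 (1.48) and Krt77 (1.04) over the 4 days. With library size alone they were Krt5 (-0.33) and Krt15 (-0.39) in spiny mouse epidermis PWD14 against PWD21. Without 1 library, Krt5 in laboratory mouse epidermis ran from -0.43 to 0.24, Krt10 in spiny mouse epidermis PWD14 against PWD21 from -0.11 to 0.0039, Krt2 in spiny mouse dermis PWD21 against PWD0 from -0.70 to 0.059, and, over the 4 days, Krt1 from -0.40 to 1.09 and Krt10 from -0.69 to 1.46. Of 356 member values under other alternatives, 306 kept direction and call, and of 217 without 1 library, 170 did. With TMM in place of plain CPM, 35 of 91 group levels moved beyond their spread, by mean factors of 0.756 (PWD28) to 1.34 (PWD14) in spiny mouse epidermis.

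No paired analysis was possible because the labels carry no replicate numbers. Most groups had 1 or 2 libraries, which limits the precision, and low read counts left Krt2 and Krt77 untested in some dermis comparisons.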

Other observations

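The stress keratins Krt6a, Krt6b, Krt16 and Krt17 gave a background to the 7 genes. In spiny mouse epidermis they summed to 7453 CPM on PWD0, to 54422 and 33573 CPM on PWD14, to 15972 and 9799 CPM on PWD21, and to 5504 CPM on PWD28. Krt6a, a type II chain induced in wounds, was at 18.2 CPM on PWD0, at 5760 and 4432 CPM on PWD14, at 2407 and 1631 CPM on PWD21, and at 46.5 CPM on PWD28. Krt17, a type I chain, was at 6636 CPM on PWD0, at 39123 and 22537 CPM on PWD14, at 9835 and 5293 CPM on PWD21, and at 4809 CPM on PWD28. In the fit all 4 were called higher on the wound days than on PWD0 and PWD28, with a median of 2.71 (log2), while 48.1% of all genes were called. In CPM the second PWD21 library of Krt17 lay below its PWD0 library.

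The simple epithelial keratins summed to 579 CPM on PWD0, to 2853 and 2459 CPM on PWD14, to 1743 and 1401 CPM on PWD21, and to 403 CPM on PWD28 in the same epidermis. Of their 4 genes, 1 was higher and 1 lower on the wound days. In spiny mouse dermis Krt17 was at 15772 and 9280 CPM on PWD0 and between 316 and 1753 CPM in the other 4 libraries, where Krt15 too had been highest on PWD0.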
